A study of Mus musculus with 8 samples.

Results

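The genes described here mark the oligodendrocyte lineage, read in cultures that were prepared as astrocytes. They were taken by name, as rows listed under the upper-case symbols PDGFRA, CSPG4, OLIG1, OLIG2, SOX10, MBP, CNP, MOG and CLDN11, 9 genes in all, and are written below in mouse style (Pdgfra and so on). Of these, 8 were rows of the raw count table of 13937 genes and all 8 were among the 13509 genes tested, whereas Mog was listed only in the FPKM table of 18644 genes. The names were chosen by their known roles in the lineage, but with earlier results of these libraries in view, among them the TGF-β response of Cldn11, so the values below describe the genes and are not independent evidence for their direction. No threshold on a measured value entered the choice.

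RNA from primary astrocytes of C57BL/6 mouse pups of postnatal day 1 was sequenced in 4 groups of 2 libraries each, stated to be biological replicates. The groups were wild-type (WT) cells left untreated, WT cells exposed for 24 h to TGF-β at 10 ng/ml, RGC-32 knockout (KO) cells left untreated, and KO cells given TGF-β at the same dose and time. All cultures were grown in serum and starved of it overnight before the stimulus, with meninges removed at dissection, and oligodendrocyte precursors and neurons shaken off the monolayer and discarded. The comparisons asked which transcripts TGF-β changed in each genotype, and whether the loss of RGC-32, a mediator of TGF-β signaling encoded by Rgcc, altered that response. Whether the pups of a library were pooled was not given in the sources used here.

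Oligodendrocyte precursors are born from ventricular progenitors, divide and migrate under PDGF acting on Pdgfra, and carry the proteoglycan NG2, the product of Cspg4, on their surface. The transcription factors Olig1, Olig2 and Sox10 specify the lineage, and differentiation brings the myelin genes Cnp, Mbp, Cldn11 and, last, Mog. Several of these genes are not exclusive to the lineage: Cspg4 is also a gene of pericytes, Pdgfra of fibroblasts, Olig2 of some astrocytes and their progenitors, and Cldn11 of arachnoid barrier cells. In bulk RNA, fewer cells of a type and less RNA per cell cannot be told apart.

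The total count per library was between 14920561 and 18956038. Rgcc, the targeted gene, had 80 and 94 counts in WT control, 215 and 362 in WT with TGF-β, 61 and 28 in KO control and 64 and 26 in KO with TGF-β, so that reads on the gene remained in all KO libraries. It rose in WT cells (log2 fold change 1.69, SE 0.44, edgeR adjusted p = 0.0221), and its value in KO cells was 0.12 (SE 0.58, edgeR adjusted p = 0.89). Compared directly between KO and WT cells, Rgcc was lower in KO but did not reach adjusted p below 0.05. Its log2 difference was -0.97 without TGF-β (edgeR adjusted p = 0.78) and -2.54 with it (edgeR adjusted p = 0.133). The astrocyte markers Gfap and Aqp4 were abundant in every library, at 353 to 874 FPKM and 112 to 202 FPKM. The 2 libraries of a group were not copies of each other: their chi-square over genes, divided by its degrees of freedom, was 6.26 to 10.4. Ngfr, the low-affinity neurotrophin receptor, had 0 counts in control replicate 2 of both genotypes and 85 to 333 counts in the other 6 libraries, so those 2 controls stood apart from replicate 1.

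The promoters of the members that moved furthest are shown first, Cspg4 for the rise and Cldn11 for the fall, so that the sequence directly before each start can be read beside the response. RefSeq windows of 300 bases were matched for 6 of the 9 genes (Cldn11, Pdgfra, Cspg4, Cnp, Olig2 and Mog). The bases before the GENCODE gene start are printed 5′ to 3′ on the plus strand of GRCm38.p6, with CAGAC, or GTCTG on the other strand, in capitals. These 5 letters form the core of sites bound by SMAD proteins, the transcription factors that TGF-β activates.
Cspg4, chr9:56864854-56865032: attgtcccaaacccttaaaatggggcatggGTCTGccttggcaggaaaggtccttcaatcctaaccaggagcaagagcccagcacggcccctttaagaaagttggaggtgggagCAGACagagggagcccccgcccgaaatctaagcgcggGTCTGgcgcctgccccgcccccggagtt
Cldn11, chr3:31149670-31149919: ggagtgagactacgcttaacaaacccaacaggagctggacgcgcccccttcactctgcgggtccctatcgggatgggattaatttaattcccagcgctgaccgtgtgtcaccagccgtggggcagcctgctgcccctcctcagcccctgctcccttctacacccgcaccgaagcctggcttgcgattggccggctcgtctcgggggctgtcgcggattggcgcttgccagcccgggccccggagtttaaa

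The Cspg4 window held 3 matches to CAGAC on either strand, the windows of Pdgfra, Cnp and Olig2 held 1 each, and those of Cldn11 and Mog held 0. A match of this length is common: 49.6% of the 32851 mouse promoter windows of 300 bases held at least 1. The share of windows with 3 or more was not counted, so the number in the Cspg4 window has no background beside it. GGAATG or its reverse complement CATTCC, the core of sites bound by TEAD factors, was present once in the windows of Cnp and Mog and absent from the other 4, against 14.7% of all windows. The strings searched can overlap by no more than a single letter, and a match is a string of letters and not a measured binding site.

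Compared per transcript length, Olig1, Olig2, Cnp and, in control, Cldn11 were high, and Sox10 and Mog were near 0. In WT control, Olig1 stood first at 68.7 to 76.3 FPKM, followed by Cnp at 50.5 to 60.5, Cldn11 at 20.2 to 31.9 and Olig2 at 11.9 to 12 FPKM. Cspg4 followed at 2.87 to 4.41 FPKM, Mbp at 1.83 to 2.18, Pdgfra at 1.54 to 1.8, Sox10 at 0.115 to 0.152 and Mog at 0 to 0.0241 FPKM. No neighbors in this order overlapped between their 2 libraries, although Mbp and Pdgfra lay close. With TGF-β the order in WT cells changed at 2 places: Cspg4 rose to the third place at 27.8 FPKM in both libraries, close below Cnp at 28.6 to 34.4, and Cldn11 dropped to the fifth, where its libraries at 0.0469 and 5 FPKM spanned those of Mbp. The KO groups had the same 2 orders as the WT groups, and in KO control the libraries of Olig1 and Cnp overlapped.

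**Figure D1:**
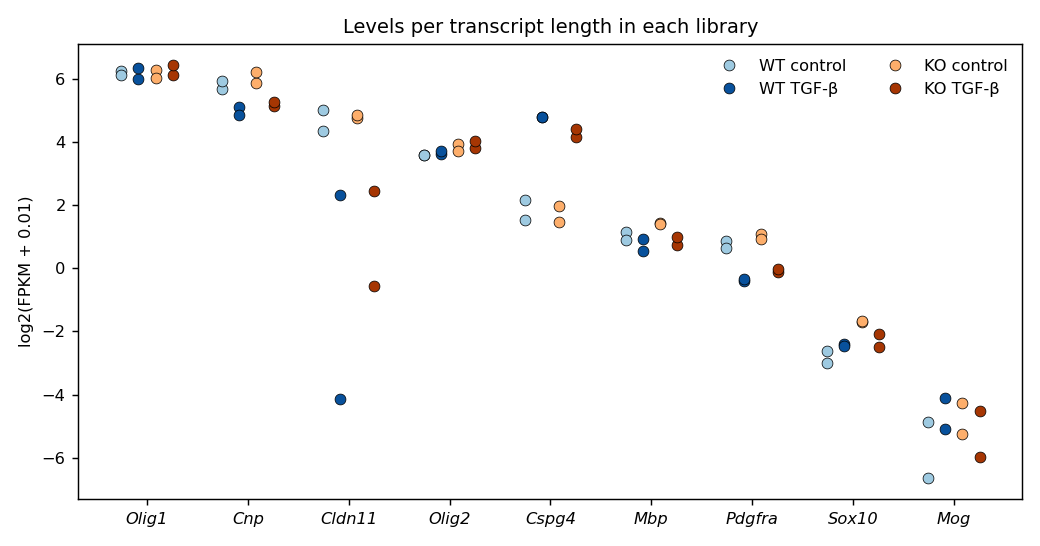
Level of each oligodendrocyte lineage gene in each of the 8 libraries as log2(FPKM + 0.01), the offset being 0.01 FPKM so that a listed 0 can be drawn, 1 point per library, colored by genotype and treatment. Olig1 and Cnp lie at the top, Sox10 and Mog at the bottom, and Cspg4 and Cldn11 exchange places between control and TGF-β.

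The levels of these lineage genes were thus uneven, and which cells carried the transcripts was not tested. Olig1, which encodes a basic helix-loop-helix factor of precursors and myelinating cells, ranged over all 8 libraries from 63.4 to 86.8 FPKM. Sox10, the factor that switches on most myelin genes, had between 2 and 17 counts per library. Mog, which encodes a glycoprotein of the outer myelin surface and marks mature oligodendrocytes, was at or below 0.0485 FPKM in every library and listed at 0 in 1 WT control. The other late myelin genes Mobp (0.0119 to 0.0621 FPKM), Opalin (0 to 0.0316 FPKM) and Ugt8a (0.0109 to 0.0929 FPKM) were likewise near 0, a choice of examples made after their values were seen. In control cultures Cnp and Cldn11 stood far above Mbp and these late genes.

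In the main fit, TGF-β changed 4 of the 8 genes tested, and the same 4 in WT and in KO cells: Cspg4 rose, and Pdgfra, Cnp and Cldn11 fell. The calls on Cldn11 in both genotypes were not stable, and that on Cnp in KO cells was lost without 1 control library, as described below. A call needed a change of 0.6 or more on the log2 scale in either direction together with adjusted p below 0.05 (edgeR quasi-likelihood test, Benjamini-Hochberg over all genes tested). By this rule 7.72% of all genes tested rose and 5.65% fell in WT cells, and 6.61% rose and 4.93% fell in KO cells. Averaged over the genotypes, 1 member rose against 8.33% of all genes and 3 fell against 6.75%. The WT and KO comparisons shared no libraries, but they came from the same fit, with a common estimate of the spread. Differences between replicates also correlated across genotypes, at 0.54 between the control groups and 0.26 between the treated groups. The shared calls are therefore not independent results. The median log2 fold change of the 8 members was -0.03 in WT and -0.50 in KO cells, beside a median near 0 over all genes tested. The KO median lay between the values of Sox10 (-0.57) and Mbp (-0.43), neither of which was called. Taken gene by gene, the KO response minus the WT response had a median of -0.02 over the members.

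**Figure D2:**
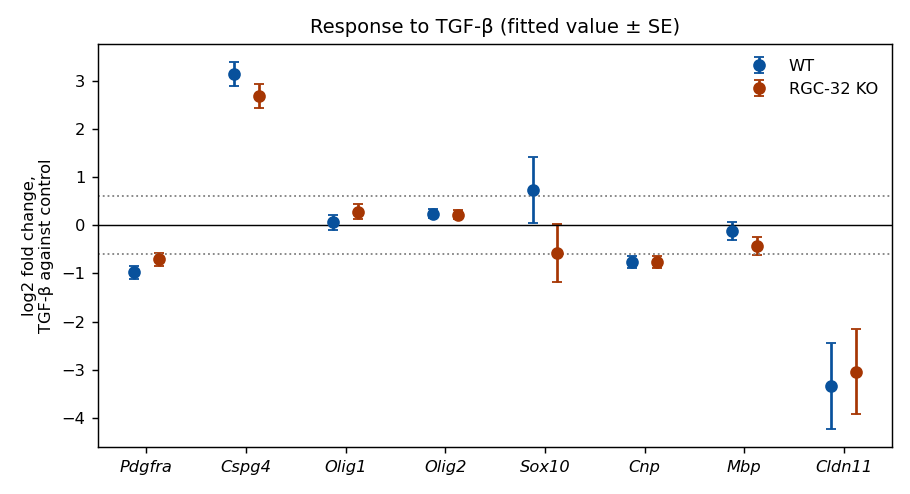
Log2 fold change of TGF-β against control for the 8 genes tested (vertical axis, fitted value with SE, 8 libraries in the fit), with WT in blue and RGC-32 KO in brown. Dotted lines mark the fold threshold of 0.6: Cspg4 lies above it and Pdgfra, Cnp and Cldn11 below it in both genotypes, and Cldn11 has the widest error.

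Among the surface proteins of precursors, Cspg4 and Pdgfra moved in opposite directions. Cspg4 (chromosome 9, 56865033 to 56899870, plus strand, GRCm38) was at 38.5 and 25.4 CPM (counts scaled to library size with TMM factors) in WT control and 257 and 302 CPM in WT with TGF-β. In KO cells it was at 33.9 and 24.1 CPM in control and 153 and 220 CPM with TGF-β. Every TGF-β library lay above every control library, and both KO libraries with TGF-β lay below both WT ones. The log2 fold change was 3.13 in WT (SE 0.25, an 8.76-fold rise, edgeR adjusted p = 2.21e-04) and 2.69 in KO cells (SE 0.25, a 6.43-fold rise, edgeR adjusted p = 4.46e-04). With each library left out in turn, these values stayed between 2.84 and 3.46 in WT and between 2.38 and 2.93 in KO cells.

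Pdgfra (chromosome 5, 75152292 to 75198215, plus strand), the PDGF receptor through which precursors proliferate, was at 13.8 and 12.2 CPM in WT control and 7.13 and 6.01 CPM with TGF-β. The KO libraries held 13.4 and 13.4 CPM in control and 7.84 and 8.52 CPM with TGF-β, so that the treated and control libraries did not overlap. Pdgfra fell by 0.98 on the log2 scale in WT (SE 0.13, edgeR adjusted p = 0.00134) and by 0.71 in KO cells (SE 0.13, edgeR adjusted p = 0.00571). Other annotated genes share 6.5% of its exon bases, and the library did not mark strand, so that reads there cannot be assigned to either.

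Of the transcription factors, none was called. Olig1 (chromosome 16, 91269772 to 91271933, plus strand) held 166 and 146 CPM in WT control, 142 and 184 CPM in WT with TGF-β, 159 and 131 CPM in KO control and 154 and 199 CPM in KO with TGF-β. Gm15966 shares 7.26% of its exon bases. Control and treated libraries overlapped in both genotypes, and the log2 fold change was 0.06 in WT (95% interval -0.32 to 0.44) and 0.28 in KO cells (-0.10 to 0.66). Olig2, which lies 41.1 kb before Olig1 on the same strand (chromosome 16, 91225457 to 91228677), held 31.5 and 30.3 CPM in WT control and 35.3 and 37.9 CPM with TGF-β. In KO cells Olig2 held 37.7 and 32.5 CPM in control and 38.1 and 43.7 CPM with TGF-β.

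The treated libraries of Olig2 lay above the controls in each genotype by a small margin. Its log2 fold change was 0.24 in WT (edgeR adjusted p = 0.0913) and 0.22 in KO cells (edgeR adjusted p = 0.127). Averaged over genotypes it was 0.23 (95% interval 0.07 to 0.39, edgeR adjusted p = 0.0252), below the fold threshold. Sox10 (chromosome 15, 79154908 to 79165240, minus strand) had 10 and 2 counts in WT control, 11 and 10 in WT with TGF-β, 12 and 17 in KO control and 5 and 13 in KO with TGF-β. With such counts a change was not detectable unless large: the 95% interval of the log2 fold change was -0.88 to 2.33 in WT and -1.96 to 0.82 in KO cells.

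**Figure D3:**
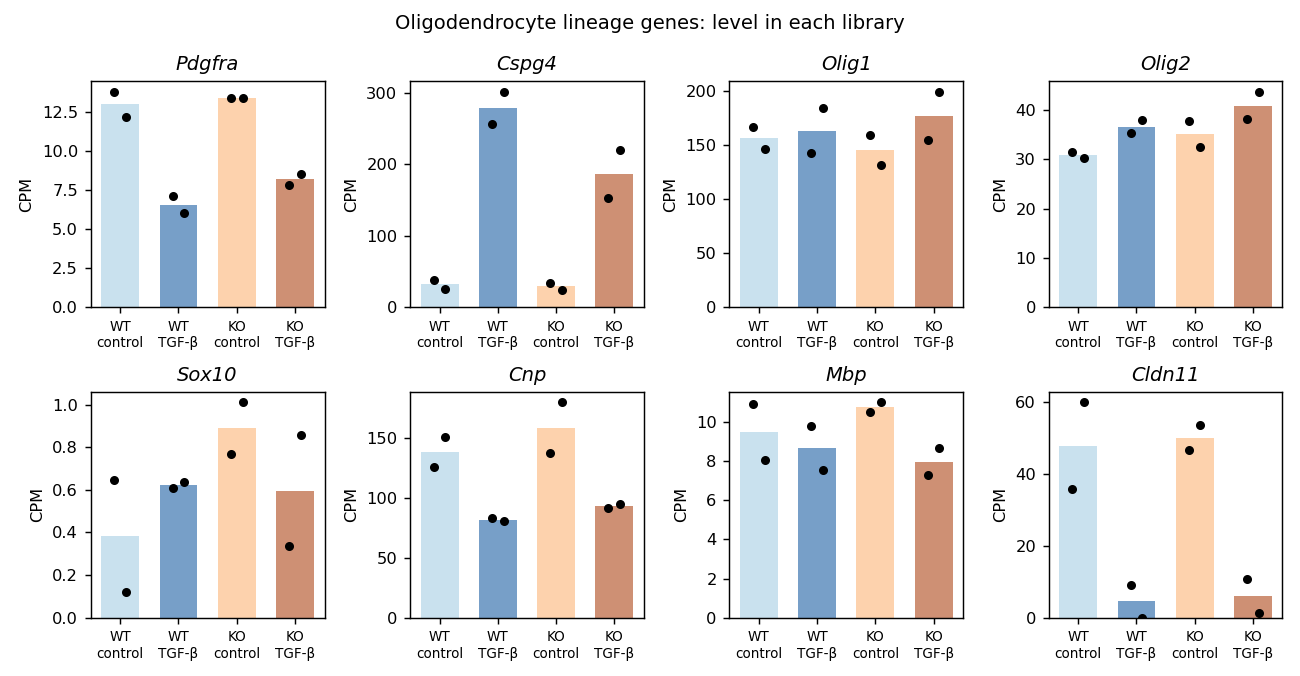
CPM (counts scaled to library size, vertical axis starting at 0, a separate scale per gene) of the 8 genes of the count table in WT and RGC-32 KO cells without and with TGF-β, where points are the 2 libraries of a group and bars their mean. Treated and control points separate in both genotypes for Pdgfra, Cspg4, Cnp, Cldn11 and, by a small margin, Olig2, and overlap in at least 1 genotype for Olig1, Sox10 and Mbp.

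Among the myelin genes, Cnp and Cldn11 fell and Mbp did not pass the test. Cnp (chromosome 11, 100574904 to 100591729, plus strand), which encodes the phosphodiesterase of uncompacted myelin, held 126 and 151 CPM in WT control and 83.1 and 80.6 CPM with TGF-β. It held 138 and 180 CPM in KO control and 92.1 and 95.5 CPM in KO with TGF-β. All treated libraries lay below all controls, and the log2 fold change was -0.76 in WT (SE 0.13, edgeR adjusted p = 0.00407) and -0.76 in KO cells (SE 0.13, edgeR adjusted p = 0.00462). Without KO control replicate 2, the library with the highest value, the change in KO cells was -0.56 and no longer reached the fold threshold. Dnajc7 shares 4.23% of the exon bases of Cnp.

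Mbp, which encodes the basic protein that compacts the myelin sheath, held 10.9 and 8.06 CPM in WT control and 9.79 and 7.55 CPM in WT with TGF-β. In KO cells Mbp was at 10.5 and 11 CPM in control and 7.3 and 8.65 CPM with TGF-β. The WT libraries overlapped and the KO libraries did not. Its log2 fold change was -0.12 in WT (95% interval -0.56 to 0.31, edgeR adjusted p = 0.654) and -0.43 in KO cells (-0.87 to 0.01, edgeR adjusted p = 0.126), and the difference between the genotypes was -0.31 (-0.93 to 0.31, edgeR adjusted p = 1).

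Cldn11 (chromosome 3, 31149920 to 31164324, plus strand), which encodes the tight junction protein of myelin sheaths, had the largest fall of the 8 genes and the largest spread. Its counts were 557 and 1004 in WT control, 164 and 0 in WT with TGF-β, 730 and 906 in KO control and 161 and 22 in KO with TGF-β. A count of 0 allows up to 0.192 CPM in that library, for counting error only, and the FPKM table lists 0.0469 for it. The treated libraries lay below the controls in both genotypes, and within each treated group replicate 2 lay far below replicate 1. Cldn11 fell by 3.33 on the log2 scale in WT (SE 0.89, edgeR adjusted p = 0.0245) and by 3.04 in KO cells (SE 0.88, edgeR adjusted p = 0.0358).

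Neither call on Cldn11 was stable. DESeq2 gave adjusted p = 0.262 in WT and 0.355 in KO cells. The alternatives spanned adjusted p-values of 0.00749 to 0.262 for the WT response and 0.0106 to 0.355 for the KO response. Without WT TGF-β replicate 2, the library at 0, the change in WT was -2.42 (edgeR adjusted p = 0.058), and without WT TGF-β replicate 1, which leaves that library alone, it was -12.57, a fitted value that depends on the prior count. Leaving out WT control replicate 2 (edgeR adjusted p = 0.0848), KO control replicate 1 (0.0819), KO control replicate 2 (0.115) or KO TGF-β replicate 2 (0.153) also ended a call. Every one of these values was negative.

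Between the genotypes, 0 of the 8 genes were called, without TGF-β (0.037% of all genes tested) and with it (0.0444%). The fit called 5 and 6 genes there, and DESeq2 gave 27 and 106 genes an adjusted p under 0.05 before any fold limit. At an unadjusted p under 0.05 there were 924 and 1576 genes, of which 0 and 1 were members. That member was Cspg4 with TGF-β, lower in KO than in WT cells by 0.58 on the log2 scale in the fit (value -0.58, 95% interval -1.11 to -0.06, edgeR adjusted p = 0.386). The other alternatives left this without a call, whereas a block that crossed the replicate numbers between control and treated libraries, added after seeing the data, called it (-0.61, edgeR adjusted p = 0.0265), while calls over all genes in that comparison went from 3 up and 3 down to 11 up and 25 down. Pdgfra was next at 0.31, higher in KO cells (-0.00 to 0.62, edgeR adjusted p = 0.43). Without TGF-β, the intervals of the KO minus WT difference ran from -0.74 to 0.46 for Cspg4, -0.23 to 0.32 for Pdgfra and -0.09 to 0.50 for Cnp.

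The response to TGF-β was compared between genotypes by the interaction, KO response minus WT response. None of the 8 genes and 0% of all genes tested were called by edgeR, and DESeq2 called 0, while 381 genes, none of them a member, had an unadjusted p under 0.05. The interaction was -0.45 for Cspg4 (95% interval -1.25 to 0.35), 0.27 for Pdgfra (-0.15 to 0.69) and -0.01 for Cnp (-0.43 to 0.42). For Cldn11 it was 0.30 with an interval from -2.72 to 3.31, so that even a large difference between genotypes would not have been detectable for this gene.

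Other genes of the lineage were read from lists. Of 17 further genes of precursors and committed progenitors, 13 were tested, of which 3 rose and 1 fell in WT cells and 1 rose and 1 fell in KO cells, with medians of -0.18 and -0.09. Sox8, a relative of Sox10, rose from 14.8 and 15.8 CPM to 55.8 and 57.9 CPM in WT and from 15.4 and 19.4 CPM to 56.1 and 63.4 CPM in KO cells. Its log2 fold changes were 1.89 (SE 0.11) and 1.78 (SE 0.11), well beyond the spread between libraries, although another transcript shares 10.6% of its exon bases. Tnr, which encodes tenascin-R, an extracellular matrix protein of the lineage, rose by 1.09 in WT (edgeR adjusted p = 0.00295), and its value in KO cells was 0.51 (edgeR adjusted p = 0.0535). Bcan, which encodes the proteoglycan brevican, fell by 0.76 in WT and by 0.62 in KO cells on the log2 scale.

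Gpr17, a receptor of committed progenitors, was called in WT at 0.68 (edgeR adjusted p = 0.0477) and had 0.46 in KO cells (edgeR adjusted p = 0.163). Its values are uncertain, because Lims2 shares 3.62% of its exon bases and its FPKM values were only 0.0622 to 0.2 beside 53 to 113 counts. Sox5, Sox6, Ptprz1 and C1ql1 were among the 9 genes of this list that did not pass in WT. Nkx2-2, a factor of precursors, was not in the count table and stood at 0.912 to 1.32 FPKM over the 8 libraries.

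Of 32 further myelin and mature oligodendrocyte genes, 22 were tested, and 2 rose and 5 fell in WT and 3 rose and 5 fell in KO cells (medians -0.22 and -0.17). Adamts4, a protease made by oligodendrocytes that cleaves brevican and related proteoglycans, rose from 13.8 and 26.4 CPM to 118 and 105 CPM in WT and from 14.9 and 25.5 CPM to 87.8 and 89.2 CPM in KO cells. Its log2 fold changes were 2.47 (SE 0.29) and 2.13 (SE 0.29). Tspan2, a tetraspanin of myelin, rose by 1.08 in WT and 0.80 in KO cells.

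Cmtm5 went the other way, with log2 fold changes of -1.22 in WT (edgeR adjusted p = 0.015) and -1.33 in KO cells (edgeR adjusted p = 0.0113). Aspa, which encodes the enzyme that releases acetate from N-acetylaspartate, had values of -1.15 and -1.19 on low counts of 11 to 49.

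**Figure D4:**
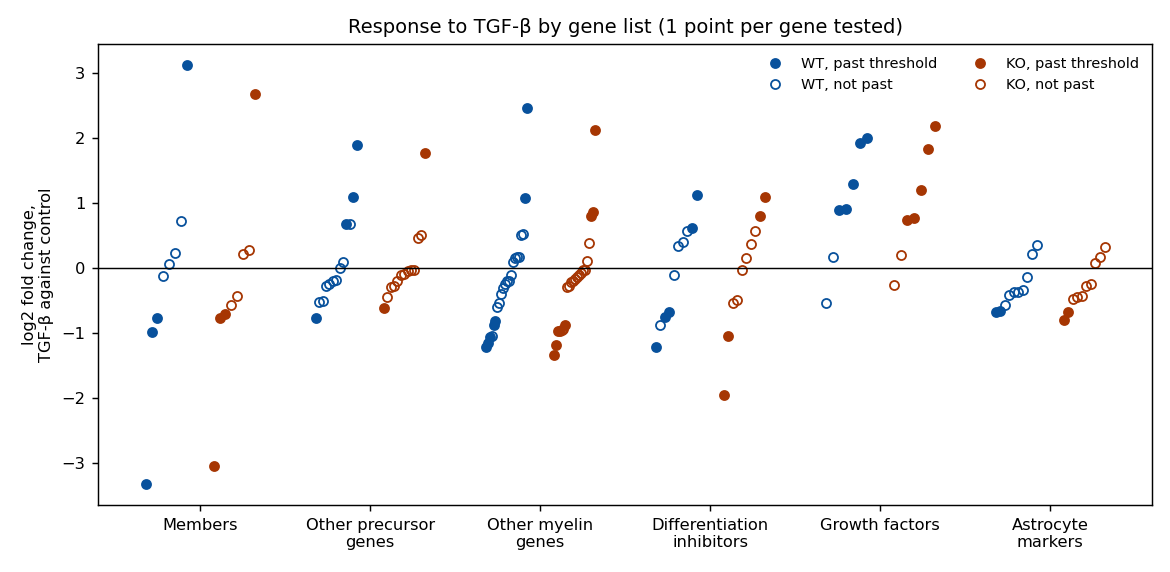
Log2 fold change of TGF-β against control (vertical axis) of every gene tested in 6 lists, 1 point per gene, with WT in blue and RGC-32 KO in brown, filled where the gene passed the threshold and open where it did not. The precursor and myelin lists hold points on both sides of 0, while the 5 filled points of the growth factor list lie above 0 in each genotype.

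Signals that act on the lineage were read from a pair of lists. Of 8 growth factors for precursors and oligodendrocytes, 7 were tested, and 5 rose and none fell in each genotype (medians 0.91 and 0.78, beside 7.72% and 6.61% of all genes rising). The eighth, Cntf, was not in the count table and was lower with TGF-β in the FPKM table without a test, at 50.7 and 48.3 against 30.8 and 29.5 FPKM in WT and 55.3 and 56.7 against 31.5 and 38.2 FPKM in KO cells. Lif, a cytokine of the IL-6 family, rose by 2.01 in WT and 2.19 in KO cells. Igf1, a survival factor of the lineage, rose from 116 and 110 CPM to 412 and 446 CPM in WT and from 93.7 and 111 CPM to 352 and 375 CPM in KO cells (log2 fold changes 1.93 and 1.83). Bdnf rose by 1.29 and 1.20, and Nrg1, an axonal signal for myelination, by 0.91 and 0.75. Pdgfa, the ligand of Pdgfra, stayed between 31.6 and 36.6 FPKM over the 8 libraries and did not pass the test.

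Of 10 genes that hold back oligodendrocyte differentiation, all were tested, and 2 rose and 3 fell in WT and 2 rose and 2 fell in KO cells, so the list had no common direction. Jag1, a Notch ligand, rose by 1.13 and 1.09, and Prrx1, a homeobox factor, by 0.62 and 0.81. Id4, a dominant inhibitor of helix-loop-helix factors, fell by 1.22 in WT and by 1.04 in KO cells on the log2 scale. Hes5, a Notch target, was called in KO cells at -1.95 (edgeR adjusted p = 0.0303) on 2 to 17 counts per library, with -0.87 in WT (edgeR adjusted p = 0.213).

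Markers of other cells that express some of these genes moved with TGF-β too. Of 8 mural genes 5 were tested, and 3 rose in WT while 3 rose and 1 fell in KO cells; their summed level was 179 to 212 CPM over the controls and 341 to 455 CPM with TGF-β. Pdgfrb, the PDGF receptor of pericytes, rose by 1.02 and 0.89, Notch3 by 1.12 and 1.08 and Anpep by 1.12 and 1.57, whereas Vtn fell in KO cells (-1.39) and had -0.64 in WT without a call. Over all libraries, Pdgfrb was at 16.6 to 35.2 FPKM, Notch3 at 4.53 to 12.3, Anpep at 2.26 to 7.45 and Vtn at 0.942 to 3.38 FPKM. The other mural genes with values were lower. The pericyte marker Rgs5 was at 0.776 to 0.999 FPKM, Kcnj8 at or below 0.205 FPKM and Higd1b at or below 0.0758 FPKM in every library, the last listed at 0 in the lowest. The part of mural cells in the rise of Cspg4 was not tested.

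Of 15 meningeal fibroblast genes 14 were tested, and 5 rose and 2 fell in WT and 5 rose and none fell in KO cells, and the summed level was 4900 to 7270 CPM in control and 8190 to 11900 CPM with TGF-β. Lama1 (3.04 and 2.73), Crabp2 (2.35 and 2.23), Col1a1 (1.31 and 1.20) and Col1a2 (1.08 and 1.10) rose in both genotypes. The genes of the list did not move together: Ogn (-0.85) and Dcn (-0.62) fell in WT, the direction of Pdgfra, with -0.50 and -0.36 in KO cells, where neither reached the fold threshold, and Islr, Foxd1 and Foxc1 were between -0.60 and -0.29 in both genotypes without a call. These 5 genes were picked out after their values were seen. Of 6 arachnoid barrier genes 4 were tested, none was called in WT and 1 fell in KO cells, Ptgds at -1.88 (-1.37 in WT); the medians were -0.80 and -0.73. Their summed level was 80.1 to 226 CPM in control and 33.8 to 76.6 CPM with TGF-β, lower with TGF-β as Cldn11 was. Ptgds was the largest part of that sum in every library. Within the treated groups it ran opposite to Cldn11, at 11.9 and 39.2 CPM in WT and 21.4 and 62.8 CPM in KO cells for replicates 1 and 2. Cdh1 ran the same way as Cldn11 there, at 9.4 and 3.71 CPM in WT and 7.24 and 3.57 CPM in KO cells. Klf5 did so by a small margin (11.6 and 10.8 CPM in WT, 11.1 and 9.71 CPM in KO cells). Dpp4 did so in KO cells (1.54 and 0.462 CPM) but not in WT (0.94 and 1.09 CPM). By FPKM over the 8 libraries, Ptgds was at 9.51 to 238, Klf5 at 4.9 to 8.41, Cdh1 at 0.664 to 1.93, Dpp4 at 0.0409 to 0.467, Krt18 at 0.116 to 0.253 and Krt8 at 0.00286 to 0.135. The part of either cell type in the changes of Pdgfra and Cldn11 was not tested.

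The remaining lists were read beside these in the same way. Of 8 genes of Schwann or ensheathing cells 5 were tested, and 1 rose (Egr2, 1.45 and 1.39) and 1 fell (Frzb, -1.09 and -1.03) in each genotype. Of 10 astrocyte markers, 2 fell in each genotype (Slc1a2 at -0.68 and -0.79, Glul at -0.66 and -0.67). The medians of this list were -0.36 in WT and -0.35 in KO cells. Its summed level was 4560 to 4730 CPM in WT control and 3570 to 3690 CPM with TGF-β. In KO cells the sum was 5250 to 5880 CPM in control and 4340 to 4660 CPM with TGF-β. Not every marker was lower: Gja1 had 0.35 and 0.33 without a call. Of 8 ependymal genes tested out of 10, 7 fell in WT and 4 in KO cells, led by Dynlrb2 at -1.22 and -1.18. Of 12 microglial genes 1 rose in each genotype (Tmem119, 0.99 and 0.68), and of 5 neuronal genes tested out of 10, 1 rose in each (Tubb3, 0.98 and 0.95). Of 7 endothelial genes tested out of 8, Flt1 rose in both (1.13 and 0.63) and Cdh5 fell in both (-1.09 and -0.85), with Kdr also falling in KO cells (-0.67). None of 10 proliferation genes was called, with medians of -0.09 and -0.22.

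The genes nearest to each member in pattern were found from log2 CPM centered on its mean over the 8 libraries, by the smallest root mean square difference. Rbfox1, which encodes a splicing factor, and Bcat1, which encodes a branched-chain aminotransferase, were nearest to Cspg4 (0.181 and 0.182, where the SD of Cspg4 itself was 1.59). Rbfox1 held 3.8 and 2.81 CPM in WT control and 22.9 and 30.8 CPM with TGF-β, and 3.57 and 1.78 CPM against 17.7 and 20.6 CPM in KO cells. Like Cspg4, both KO libraries with TGF-β lay below both WT ones.

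Cldn11 had no close neighbor. The nearest were Cyp26b1, which encodes an enzyme that breaks down retinoic acid, at 1.59 and Myh8 at 1.65, against an SD of 3.12. Myh8 also had 0 counts in WT TGF-β replicate 2. Cyp26b1 held 162 and 280 CPM in WT control, 50.5 and 15.2 CPM in WT with TGF-β, 170 and 183 CPM in KO control and 50.7 and 10.4 CPM in KO with TGF-β. As for Cldn11, replicate 2 was the lower treated library in both genotypes.

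For the others the differences were small beside the members' own spread except for Sox10. Npy and N4bp2l1 were nearest to Pdgfra (0.0884 and 0.0901, SD 0.473), Igsf11 to Cnp (0.0357, SD 0.433), and the second gene nearest to Cnp (0.0399) carries a name that a spreadsheet turned into a date and is not identified. Scarb1 and Hacd3 were nearest to Olig2 (0.0347 and 0.0434, SD 0.174) and Mpg and Pcyox1l to Olig1 (0.0667 and 0.076, SD 0.197). Csf3r and Cd84, both genes of myeloid cells, were nearest to Mbp (0.0652 and 0.0715, SD 0.238), and Grik1 and Lin7a to Sox10 (0.386 and 0.426, SD 0.712). These likenesses were picked among all genes over 8 libraries that share the TGF-β contrast.

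**Figure D5:**
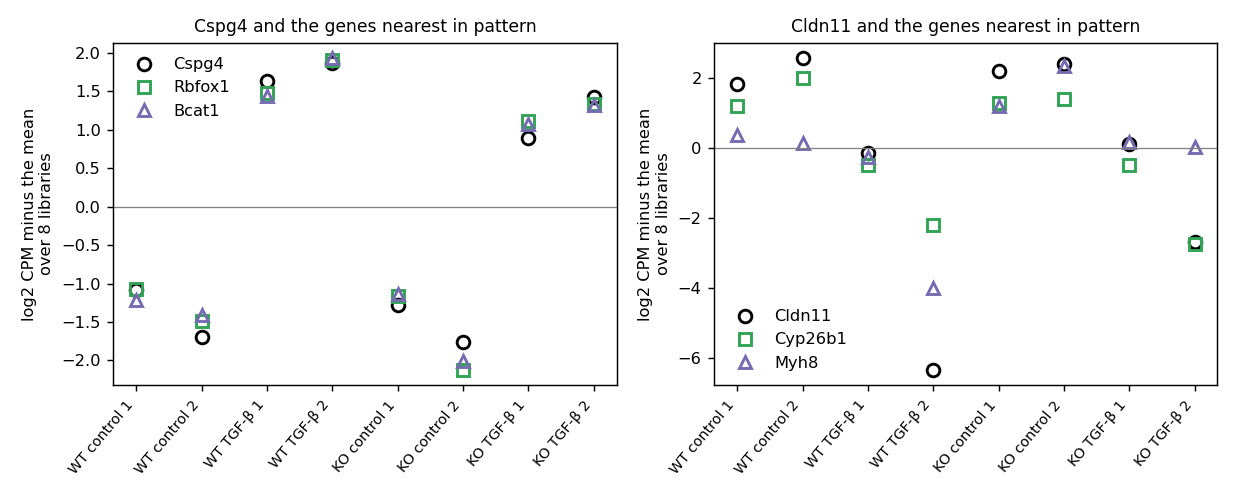
Log2 CPM minus its mean over the 8 libraries (vertical axis) in each library (horizontal axis), for Cspg4 with Rbfox1 and Bcat1 (left) and Cldn11 with Cyp26b1 and Myh8 (right), each gene with its own symbol. The genes on the left overlie each other, whereas on the right the 3 genes lie apart. In WT TGF-β replicate 2, Cldn11 and Myh8 both have 0 counts, so the gap between their points there is set by their different means and is not a measured difference.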

How the data were processed

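The deposited raw counts were whole numbers per gene, and the deposited FPKM values were scaled for length and depth by the authors. Per the labels, libraries were unstranded, and the submitters' processing notes name STAR, Cufflinks, DESeq and the build mm10; versions, annotation and the counting program were not given in the sources used here. Further deposited tables held the authors' fold changes and p-values and were not used. In the counts, 21 gene names read as dates, 1 of them present more than once.

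Counts were filtered by filterByExpr (minimum count 10), scaled by TMM and fitted with edgeR 4.0.16 (R 4.3.3) in a quasi-likelihood model of the 4 groups over all 8 libraries, without a replicate block. Adjusted p-values are Benjamini-Hochberg over 13509 genes, from 2 libraries a group, and intervals use the t distribution. The fit was checked on simulated counts. Levels between genes use FPKM, and differences use counts. Gene positions and shared exon bases came from GENCODE M21 on GRCm38.

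The members and lists were chosen with earlier results of these data known. Named by rule were all members, Rgcc and up to 4 called genes per list with the largest change in either genotype. The 2 genes nearest in pattern to each member (mean CPM of at least 1) were named too. Other named genes lie outside this rule, among them Gfap, Aqp4, Ngfr, Pdgfa, Rgs5 and further genes without a call. They are examples, and only some are marked as such where they are named. Alternatives were DESeq2 1.42.0, limma 3.58.1 (voom, and FPKM with pseudocounts 0.1 and 1 for genes at 0.5 FPKM or more in 2 libraries), other scalings and filters, no fold threshold, 4 libraries only, a replicate block and leaving out each library. Limits on a count of 0 use 3 counts. A few genes of the lists are counted in them but not reported here by name.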

Additional observations from a re-analysis of the deposited data

How the results depend on the processing

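With 2 libraries a group, the rise of Cspg4 and the fall of Pdgfra kept their calls in both genotypes under every alternative run. The number of members that fell in KO cells was 3 and became 1 without KO control replicate 2 (over single libraries left out, 1 to 3), and the number that rose on average was 1 and became 2 with no fold threshold, Olig2 being added at 0.23. Cldn11 lost its call on the average response with DESeq2 (adjusted p = 0.078) and in KO cells on FPKM with pseudocount 0.1 (adjusted p = 0.101). Sox10, at 2 to 17 counts, is limited by depth.

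Several uncalled values changed sign. For Olig1 in WT, 0.06 became -0.02 under upper quartile scaling, -0.01 on FPKM with either pseudocount, and -0.15 to 0.24 without single libraries. Without single libraries, the WT values were -0.07 to 2.31 for Sox10 and -0.34 to 0.11 for Mbp, and the average value of Sox10 was -0.34 to 0.87 (-0.00 under upper quartile scaling). For KO against WT without TGF-β the ranges without single libraries were -0.04 to 0.13 for Pdgfra, -0.41 to 0.19 for Cspg4, -0.25 to 0.03 for Olig1, -0.02 to 0.42 for Mbp, -0.00 to 0.38 for Cnp and -0.26 to 0.48 for Cldn11. With TGF-β they were -0.09 to 0.33 for Olig1, -0.89 to 0.47 for Sox10, -0.28 to 0.07 for Mbp (0.13 and 0.09 on FPKM with pseudocounts 0.1 and 1) and -1.69 to 9.58 for Cldn11. For the interaction they were -0.14 to 0.08 for Olig2 (0.02 on FPKM with either pseudocount), -0.19 to 0.20 for Cnp (0.00 with limma-voom) and -1.76 to 9.51 for Cldn11; Pdgfra was -0.02 on FPKM with pseudocount 1. The cause was not tested.

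Over all genes, the counts called moved by more than 1.5 times with no fold threshold (WT 2514 up and 1936 down, KO 2243 and 1592, average 3470 and 3026), and on FPKM (WT 670 and 520 up and average 689 and 502 up with pseudocounts 0.1 and 1, KO 464 up with pseudocount 1 and 1102 down with 0.1). Without WT TGF-β replicate 2, 486 genes fell in WT; without KO control replicate 2, KO TGF-β replicate 1 or KO TGF-β replicate 2, 388, 393 and 436 fell in KO cells. Between genotypes, 4 genes up and 1 down without TGF-β became 6 and 7 with DESeq2, and 3 up and 3 down with TGF-β became 12 and 22; without single libraries each of these 4 counts fell to 0 at the lowest. Upper quartile scaling took the share of calls that rose from 57.8% to 44.8% in WT, 57.3% to 45.5% in KO cells and 55.2% to 43.9% on average.

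Replicate numbers were shared by all groups, but nothing in the labels ties them to a litter or day. Differences between replicates correlated over 13101 genes at 0.54 between the 2 control groups, 0.26 between the 2 treated groups and -0.33, -0.34, -0.46 and -0.49 between control and treated groups. Same-numbered libraries thus deviated together across genotypes within a treatment and oppositely across treatments, so the numbers as given did not pair all groups. With a replicate block, 1 member rose and 3 fell in each genotype, and 957 and 659 genes were called up and down in WT and 814 and 555 in KO cells. A crossed pairing of controls with treated libraries, added after seeing the data, gave 1167 and 938 in WT and 1040 and 812 in KO cells, and called 1 member, Cspg4, lower in KO than WT with TGF-β, in place of 0, where 11 genes up and 25 down were called in place of 3 and 3.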
